A study of Mus musculus with 14 samples.

Results

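Imprinted genes are genes whose RNA comes mainly or only from the copy inherited from one parent. The 43 genes described here were taken by name from a list of established mouse imprinted genes out of 54446 gene identifiers in the expression tables. In the mouse, 23 of them are known as paternally expressed and 20 as maternally expressed, and they fall into 17 loci. The study asked what TET enzymes, which oxidise methylated cytosine, do while embryonic stem (ES) cells are held in a dormant state by inhibition of the growth kinase mTOR (mTORi). Total RNA was sequenced from 14 libraries of E14 mouse ES cells, with ERCC spike-in RNAs added before ribosomal RNA was depleted. Wild-type (WT) cells were untreated (0 h) or had been kept in the mTOR inhibitor INK128 for 24, 72 or 144 h. Cells labelled as a knockout of both Tet1 and Tet2 (Tet1/2 DKO) were untreated or treated for 24 or 72 h. Each of the 7 groups had 2 replicates. The DKO line came from WT E14 cells through CRISPR-Cas9 cutting of both genes and sorting of single cells, so any difference between the genotypes is also one between 2 cell lines. Both lines were grown without feeder cells in serum and LIF, and a 144 h DKO group was not analysed here.

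An imprinted cluster carries a control region whose DNA is methylated on one parental copy. That mark is laid down in the germ line and kept through the wave of demethylation in the early embryo, in part by ZFP57, a zinc finger protein that binds methylated TGCCGC and recruits TRIM28 and histone methyltransferase activity. Many imprinted genes act on growth. Several paternally expressed members, such as Igf2 and Peg3, and several maternally expressed ones, such as Grb10, Cdkn1c, Phlda2 and H19, have opposing effects on the size of the fetus or placenta in textbook accounts. ES cells in culture are known to gain or lose imprint methylation, so their parental expression can differ from that of the embryo. The values here sum both parental copies, and no library tells the maternal from the paternal RNA.

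Levels are given in TPM, transcripts relative to a fixed total of 1000000 per library, a measure per length of transcript. The deposited TPM were multiplied by 1 factor per library that puts them on the scale of the spike-ins, and the product is called spike-in normalized TPM. Differences are log2(TPM + 1) between group means ± SE, and a difference was called when limma's adjusted p was under 0.05 over the 18232 genes tested. The factors ran from 1 in WT 144 h replicate 2 to 2.81 in DKO 0 h replicate 1, so a fall on the spike-in scale can stand beside a rise among the deposited TPM. In these bulk samples a smaller number of expressing cells cannot be told apart from less RNA in each cell. Nothing in the labels ties replicates to separate cultures, while the study describes them as biological replicates, and with 2 of them in each group p-values rest on a spread shared by all groups.

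The libraries were checked against their labels first. Tet2 stood at 210.4 and 203 (0 h), 165 and 203 (24 h), 189 and 170.3 (72 h) and 129 and 143 (144 h) in WT. In DKO Tet2 was at 53.9 and 52.7 (0 h), 35.5 and 27.1 (24 h) and 54.98 and 32.3 (72 h) in spike-in normalized TPM. Every DKO library was below every WT library of the same time, and Tet2 fell in DKO by 1.93, 2.52 and 2.06 on the log2 scale at 0, 24 and 72 h. Tet1 stood at 416 and 403 (0 h), 392 and 472 (24 h), 516 and 430.3 (72 h) and 344 and 349 (144 h) in WT and 427 and 349 (0 h), 437 and 238 (24 h) and 602 and 429 (72 h) in DKO, and the genotypes overlapped at each time on that scale. Of the deposited Tet1 TPM every DKO value was below every WT value of the same time, with log2 differences of -0.38, -0.51 and -0.31 at 0, 24 and 72 h, of which that at 24 h was called. Only Tet2 therefore served as a check of the DKO label in these libraries, which the Tet1 RNA values do not settle. The paper reports that clones were screened by PCR and that the knockouts were established by western blot with TET1 and TET2 antibodies. The 5 ES cell markers Pou5f1, Sox2, Nanog, Esrrb and Zfp42 summed to 2016 to 2629 deposited TPM in the 14 libraries.

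The members covered a wide range of levels. The highest mean deposited TPM over the 14 libraries were those of Rian at 542, Peg10 at 216, Meg3 at 178, Cd81 at 120.0 and Snrpn at 114. In all, 25 members had a mean of at least 10 and 9 a mean under 2. Kcnq1, which encodes a potassium channel, never exceeded 0.133 deposited TPM and was the only member below the filter, a mean of 1 spike-in normalized TPM, leaving 42 members for the tests.

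**Figure D1:**
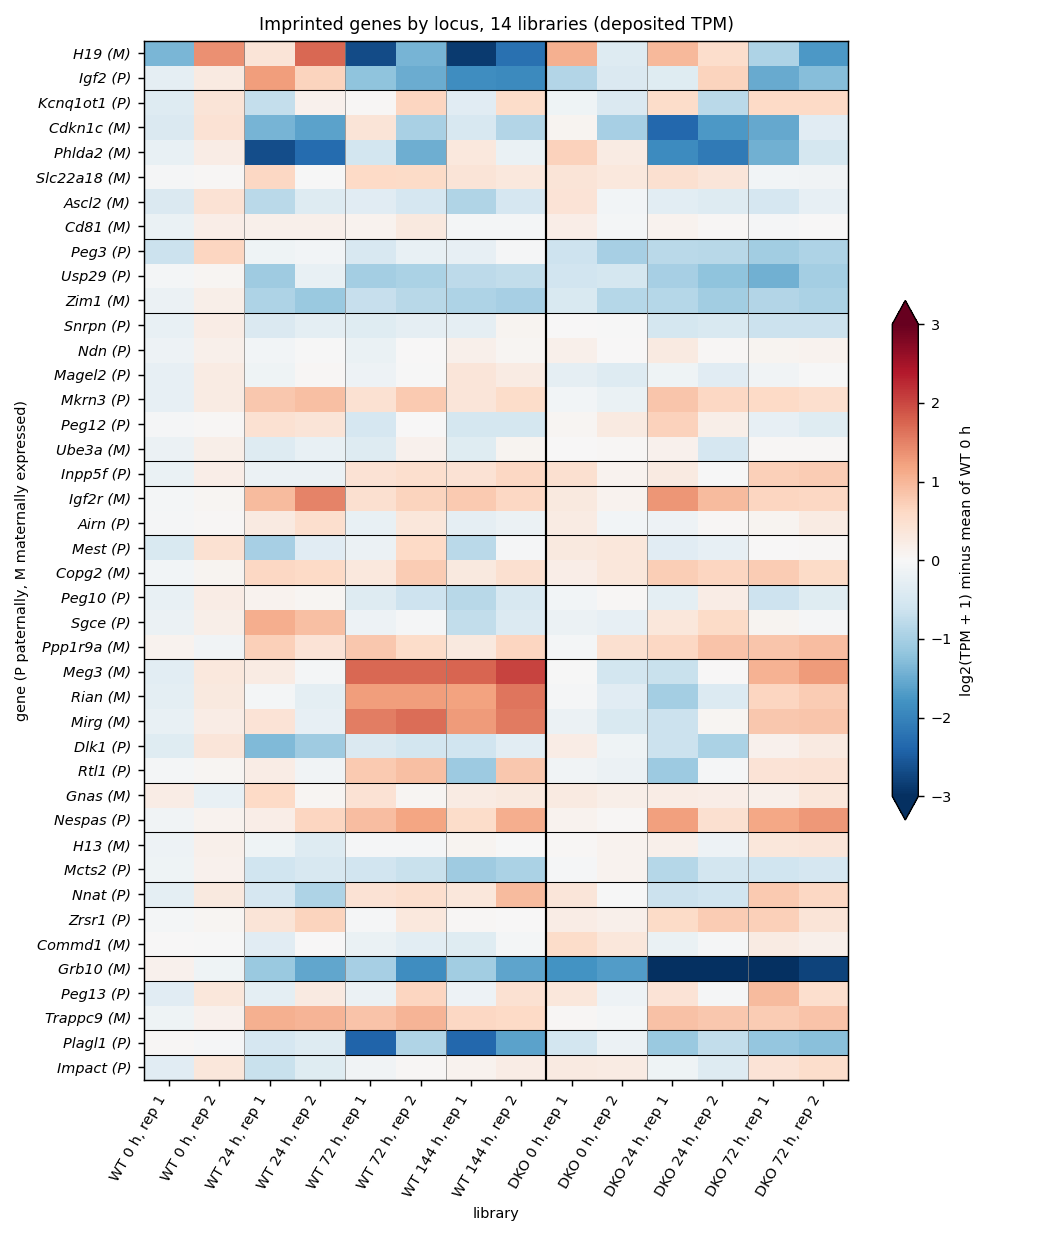
Log2(deposited TPM + 1) of the 42 tested members, grouped by locus, in each of the 14 libraries, as the difference from the mean of the WT 0 h libraries (colour scale clipped at 3 in either direction). Meg3, Rian and Mirg are above the WT 0 h mean at 72 and 144 h, while Grb10, Plagl1, Igf2, Mcts2 and H19 are below it at 144 h.

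Under mTORi the median member moved downwards about as much as the median of all genes did on the spike-in scale. The share called lower was larger among the members than among all genes at WT 24 h, WT 72 h and DKO 24 h. In WT cells 6 of the 42 members fell and none rose at 24 h, where 8.73% of all genes tested fell and 1.25% rose. At 72 h 9 members fell and 2 rose, beside 7.6% and 0.697% of all genes. At 144 h 23 members fell and 1 rose, beside 50.5% and 0.461%, so that the count that fell is near the background. In DKO cells 11 members fell and none rose at 24 h, where 18.7% of all genes fell and 0.505% rose. At DKO 72 h 2 fell and 1 rose, beside 2.95% and 0.713%. The median difference of the members was -0.32, -0.39 and -0.95 in WT at 24, 72 and 144 h, beside -0.33, -0.33 and -0.83 for all genes. In DKO it was -0.58 at 24 h and -0.17 at 72 h, beside -0.49 and -0.12.

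Members of both parental classes fell. At WT 144 h 13 of 23 paternally expressed members fell and none rose, and 10 of 19 maternally expressed members fell and 1 rose, with a median of -0.95 in both classes. At WT 72 h 5 paternally expressed members fell, while 4 maternally expressed ones fell and 2 rose. At WT 24 h 2 paternally and 4 maternally expressed members fell. In DKO, 6 paternally and 5 maternally expressed members fell at 24 h. At DKO 72 h 2 maternally expressed members fell and 1 rose, and no paternally expressed one was called. That split did not hold in other fits. With the replicate block described below, 1 paternally expressed member was called higher and 7 lower there, beside 2 and 5 maternally expressed ones, and the deposited TPM gave 2 and 2, beside 5 and 2.

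Among the deposited TPM, where the median of all genes lay within 0.14 of 0 in these comparisons, the split of the calls changed. There 6 members were called higher and 5 lower at WT 24 h (29.9% of all genes called), 10 and 6 at WT 72 h (24%), 7 and 9 at WT 144 h (27.3%), 6 and 7 at DKO 24 h (24.9%) and 7 and 4 at DKO 72 h (26.3%). Members called in the same direction on both scales were 5 at WT 24 h (9.32% of all genes), 8 at WT 72 h (7.42%), 10 at WT 144 h (12.2%), 7 at DKO 24 h (13.5%) and 3 at DKO 72 h (3.47%), and no member was called in opposite directions. At WT 144 h, 18 of the 42 members had opposite signs on the 2 scales. The share of all genes that did was not counted, and the all-gene median there was -0.83 on the spike-in scale and 0.05 among the deposited TPM. Grb10 was the one member called on both scales at every time in both genotypes.

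A fit with a block for the replicate number within each genotype called more members. It called 3 higher and 15 lower at WT 24 h (30.2% of all genes), 3 and 14 at WT 72 h (28.3%), 1 and 28 at WT 144 h (67.4%), 0 and 23 at DKO 24 h (40%) and 3 and 12 at DKO 72 h (18.5%). Of the 14 members with no call on the spike-in scale at any time, the block called 3 higher (Igf2r, Nespas and Trappc9) and 7 lower (Airn, Copg2, Inpp5f, Kcnq1ot1, Ndn, Rtl1 and Slc22a18), each in 1 comparison. Of the 55 calls made without the block, 13 held in each of the 14 fits that left out 1 library, a share not counted for all genes. These were Commd1, Grb10, H19, Igf2, Mcts2, Peg10, Plagl1, Sgce, Usp29 and Zim1 at WT 144 h, Phlda2 at WT 24 h, and Grb10 and Phlda2 at DKO 24 h. None of the 11 calls at WT 72 h and none of the 3 at DKO 72 h held in all of them.

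**Figure D2:**
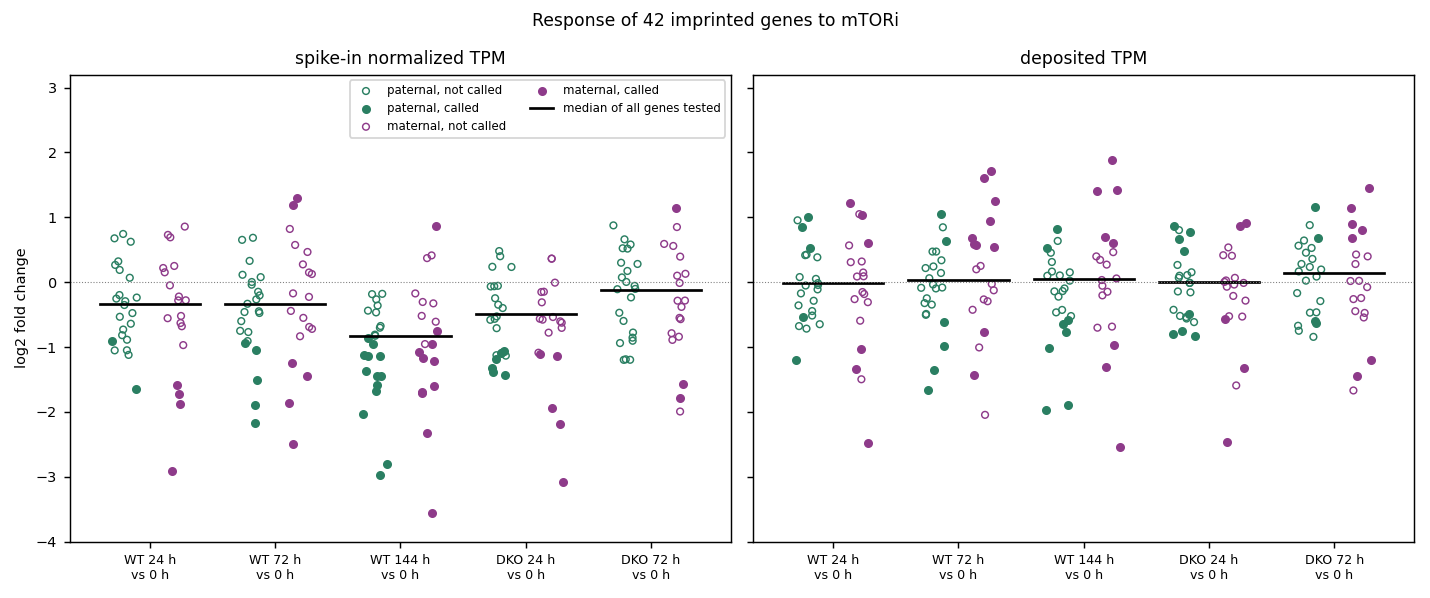
Log2 difference from 0 h of each tested member in the 5 mTORi comparisons, for paternally and maternally expressed members, on the spike-in scale and among the deposited TPM (filled points are called, the black line is the median of all 18232 genes). On the spike-in scale the members spread around the all-gene median, which is -0.83 at WT 144 h, and both parental classes have a median of -0.95 there.

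The Dlk1-Meg3 cluster on chromosome 12 held both members that rose on the spike-in scale, Meg3 and Mirg. Its maternally expressed side is a run of noncoding RNAs (Meg3, Rian and Mirg) with small nucleolar RNAs and a large group of microRNAs, and its paternally expressed side encodes Dlk1, a transmembrane protein related to Notch ligands, and Rtl1, a retrotransposon-derived protein of the placenta. RefSeq places 14 miRNA genes with 26 mature miRNAs inside Mirg, 3 with 6 inside Rian and 2 with 3 inside Meg3, on the strand of their host. The total RNA libraries measure the host transcripts and not the mature miRNAs. A pair of Mirg miRNAs that share a seed is shown for the kind of product the locus carries, 5′ to 3′ with bases 2 to 8, the seed, in capitals.
mmu-miR-453: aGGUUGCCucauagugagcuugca
mmu-miR-496a-5p: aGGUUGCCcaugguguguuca

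A promoter window of Meg3 is shown because Meg3 was the only member called higher at 3 of the 5 comparisons on the spike-in scale, a count that other members reached or passed among the deposited TPM. It is the RefSeq window of GRCm38.p6, chr12:109540746-109541045 on the plus strand, from 250 bases before to 50 bases after the start, with the one TGCCGC (or its complement GCGGCA) in capitals and 13 CpG. A second RefSeq window of Meg3, chr12:109545148-109545447, holds 1 CpG and no TGCCGC.
Meg3 promoter: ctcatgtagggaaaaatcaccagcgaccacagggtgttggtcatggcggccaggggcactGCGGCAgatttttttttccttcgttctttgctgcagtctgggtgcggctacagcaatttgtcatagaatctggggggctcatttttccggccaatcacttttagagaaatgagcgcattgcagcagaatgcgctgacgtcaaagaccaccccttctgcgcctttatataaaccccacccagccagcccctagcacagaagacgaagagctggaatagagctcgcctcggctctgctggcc

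Meg3 was at 159.9 and 253 (0 h), 161 and 169.6 (24 h), 519.9 and 473 (72 h) and 344 and 391 (144 h) in WT. In DKO Meg3 was at 264 and 154 (0 h), 133 and 131 (24 h) and 497 and 404 (72 h), in spike-in normalized TPM. In each genotype both 72 h libraries, and in WT both 144 h libraries, were above both 0 h libraries. It changed by 1.3 ± 0.29 (adjusted p = 0.011) at WT 72 h, 0.87 ± 0.29 (adjusted p = 0.018) at WT 144 h and 1.15 ± 0.29 (adjusted p = 0.031) at DKO 72 h on the log2 scale. Among the deposited TPM the differences were larger, at 1.72, 1.89 and 1.45, all called. Meg3 was not called at 24 h, with -0.28 in WT and -0.6 in DKO (adjusted p = 0.042 with the replicate block in DKO). The call at WT 72 h was lost without WT 0 h replicate 1, WT 72 h replicate 1 or WT 72 h replicate 2 (0.97 to 1.37), that at WT 144 h without WT 0 h replicate 1, WT 144 h replicate 1 or WT 144 h replicate 2 (0.54 to 0.96) and that at DKO 72 h without WT 144 h replicate 1, WT 144 h replicate 2, DKO 0 h replicate 2, DKO 72 h replicate 1 or DKO 72 h replicate 2 (0.76 to 1.3).

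Rian and Mirg lie downstream of Meg3 in the same direction, and their library values are given because of the Meg3 result, chosen after they were seen. Rian, the member with the highest level, was at 652 and 967 (0 h), 514 and 567 (24 h), 1477 and 1332 (72 h) and 926 and 1139.5 (144 h) in WT. In DKO Rian was at 1033 and 705 (0 h), 415 and 381 (24 h) and 1489 and 1108 (72 h). In each genotype its 72 h libraries were above and its 24 h libraries below both 0 h libraries on the spike-in scale. Mirg, the host of most of the miRNAs, was at 85.1 and 116 (0 h), 90.1 and 73.6 (24 h), 228 and 227 (72 h) and 124 and 141 (144 h) in WT. In DKO Mirg was at 117 and 80.05 (0 h), 65.96 and 66.9 (24 h) and 209.7 and 147 (72 h). Mirg too was highest in the 72 h libraries of each genotype on the spike-in scale. Mirg changed by 1.19 ± 0.28 (adjusted p = 0.014) at WT 72 h, a call lost without WT 0 h replicate 1, WT 0 h replicate 2, WT 72 h replicate 1 or WT 72 h replicate 2 (0.97 to 1.41). Rian differed by 0.82 ± 0.28 (adjusted p = 0.071) at WT 72 h, which missed the threshold without the block and passed it with the block at an adjusted p of 0.011 (0.0035 to 0.44 over all alternatives). It was 0.54 without WT 0 h replicate 1 and 1.10 without WT 0 h replicate 2. Mirg at DKO 72 h, with 0.85 ± 0.28 (adjusted p = 0.092), passed it with the block as well, at 0.012 (0.011 to 0.51). Among the deposited TPM all 3 RNAs were called higher at WT 72 h, WT 144 h and DKO 72 h, with Rian at 1.25, 1.4 and 0.89 and Mirg at 1.61, 1.43 and 1.14. At DKO 24 h Rian fell by 1.10 on the log2 scale, a call lost without DKO 0 h replicate 1 or DKO 24 h replicate 2 (-1.04 to -0.82) and not made among the deposited TPM (-0.53).

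On the protein-coding side Dlk1 fell and Rtl1 was not called. Dlk1, again chosen after its values were seen, was at 8.1 and 14.9 (0 h), 2.14 and 3.69 (24 h), 5.96 and 4.92 (72 h) and 3.32 and 4.0 (144 h) in WT. In DKO Dlk1 was at 17.6 and 11.1 (0 h), 6.65 and 3.05 (24 h) and 14.8 and 11.3 (72 h). At 24 h both libraries of each genotype lay below both of its 0 h libraries. Dlk1 changed by -1.65 ± 0.4 (adjusted p = 0.012) at WT 24 h, by -1.37 ± 0.4 (adjusted p = 0.0087) at WT 144 h and by -1.43 ± 0.4 (adjusted p = 0.017) at DKO 24 h, and the 24 h calls were also made among the deposited TPM. Leaving out single libraries ended the call at WT 24 h without WT 0 h replicate 2 or WT 24 h replicate 1 (-1.36 to -1.24), at WT 144 h without WT 0 h replicate 2 or WT 144 h replicate 1 (-1.27 to -0.97) and at DKO 24 h without DKO 0 h replicate 1 or DKO 24 h replicate 2 (-1.12 to -0.97). The ratio of Meg3 to Dlk1 within a library, which needs no scaling, went from 19.7 and 16.9 at WT 0 h to 104 and 97.7 at 144 h. That of Rian to Meg3 went from 4.08 and 3.83 to 2.69 and 2.91. Rtl1 was low, at most 2.96 deposited TPM, and was listed at 0 in WT 144 h replicate 1 and DKO 24 h replicate 1. In spike-in normalized TPM it was at 2.22 and 2.54 (0 h), 2.1 and 1.8 (24 h), 4.45 and 4.4 (72 h) and 0 and 2.71 (144 h) in WT. In DKO Rtl1 was at 2.78 and 2.09 (0 h), 0 and 1.45 (24 h) and 4.62 and 3.25 (72 h), with both 72 h libraries above both 0 h libraries in each genotype. Rtl1 differed by 0.68 ± 0.48 (adjusted p = 0.4) at WT 72 h and 0.52 ± 0.48 (adjusted p = 0.6) at DKO 72 h, and was called on neither scale. With the replicate block its difference of -1.13 at DKO 24 h had an adjusted p of 0.038 by limma. RefSeq also places 6 miRNA genes on the strand opposite to Rtl1. Whether reads were counted by strand is not given in the sources used here, so antisense transcripts that overlap in exons are uncertain throughout.

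**Figure D3:**
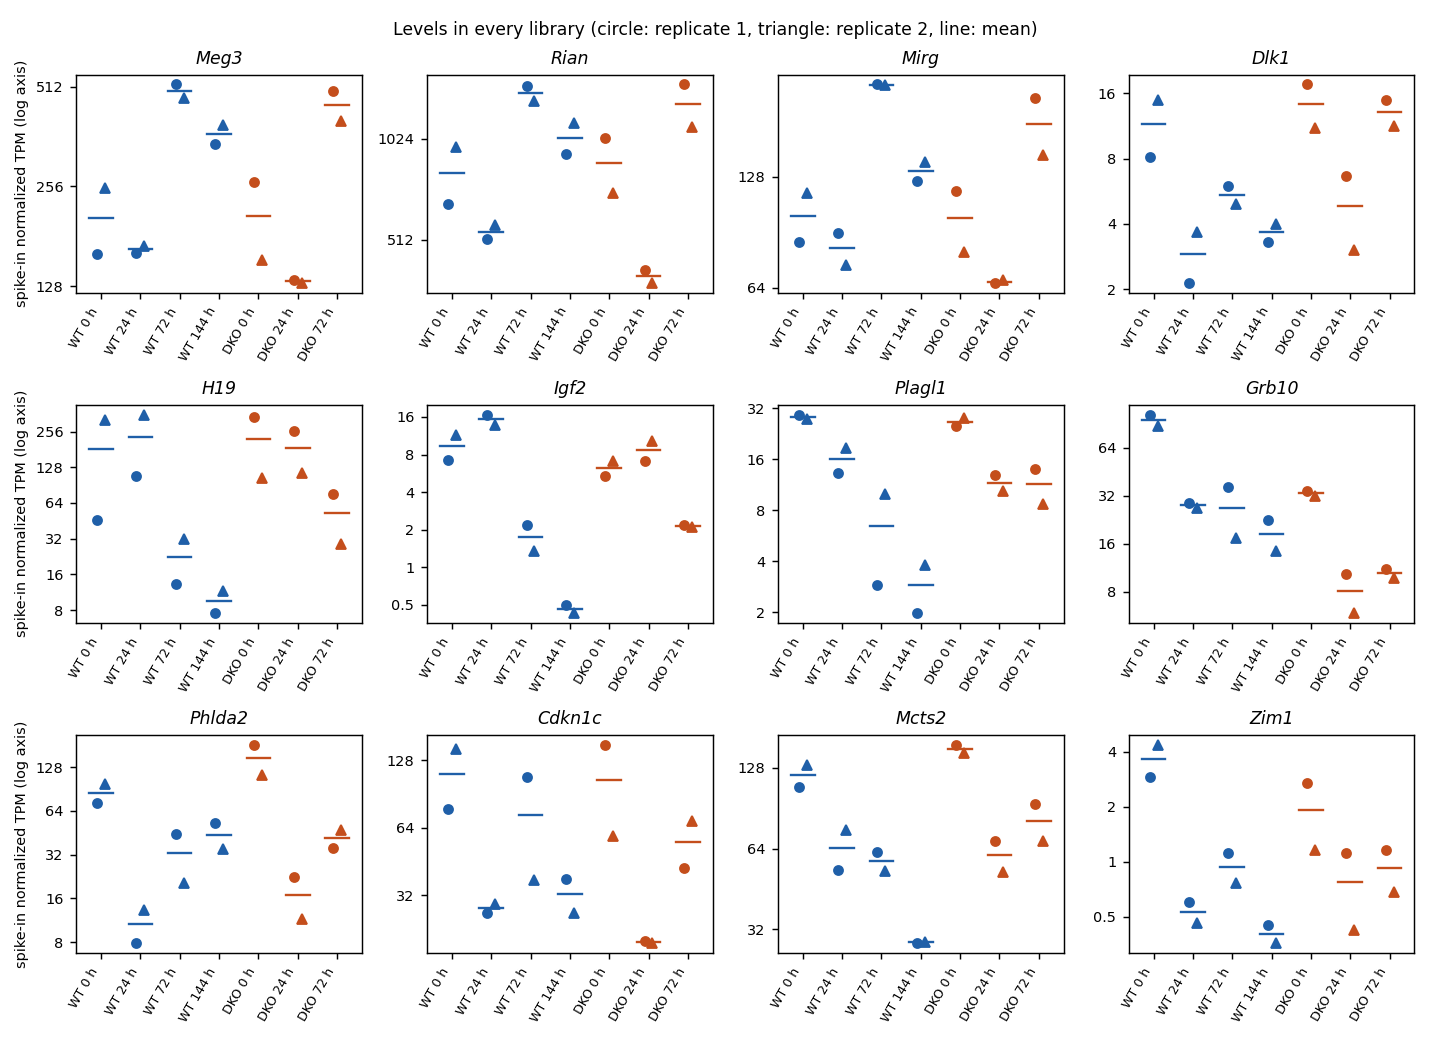
Spike-in normalized TPM (log axis) of 12 members in each library of the 7 groups, with WT in blue and DKO in orange, circles for replicate 1, triangles for replicate 2 and short lines at the group means. Meg3 is higher at 72 h than at 0 h in both genotypes, Grb10 is lower at every treated time with its DKO points below the WT points of the same time, and the H19 replicates of WT 0 h lie far apart.

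Igf2 and H19 share enhancers and a control region on chromosome 7. Igf2 encodes a fetal growth factor that signals through the IGF1 and insulin receptors and is paternally expressed. H19 is a maternally expressed noncoding RNA and the host of miR-675, of which the 5p arm is shown with its seed in capitals.
mmu-miR-675-5p: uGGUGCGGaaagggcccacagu

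Igf2 was at 7.21 and 11.6 (0 h), 16.7 and 13.9 (24 h), 2.16 and 1.36 (72 h) and 0.497 and 0.430 (144 h) in WT. In DKO Igf2 was at 5.42 and 7.1 (0 h), 7.06 and 10.2 (24 h) and 2.18 and 2.11 (72 h), in spike-in normalized TPM. In WT all libraries at 72 and 144 h were below both at 0 h. Igf2 changed by -1.89 ± 0.35 (adjusted p = 0.0037) at WT 72 h and by -2.8 ± 0.35 (adjusted p = 2.5e-05) at WT 144 h, and both calls were made among the deposited TPM too (-1.35 and -1.89). The 72 h call was lost without WT 0 h replicate 2 or WT 72 h replicate 2 (-1.68 to -1.59). In DKO at 72 h the difference was -1.2 ± 0.35 (adjusted p = 0.063), which passed with the block at 0.006 (0.006 to 0.32 over all alternatives). At 24 h Igf2 differed by 0.68 in WT and 0.4 in DKO, neither called.

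H19 was at 45.6 and 321 (0 h), 109 and 355 (24 h), 13.4 and 31.8 (72 h) and 7.58 and 11.5 (144 h) in WT. In DKO H19 was at 343 and 105 (0 h), 257 and 114 (24 h) and 75.6 and 28.9 (72 h). The WT 0 h libraries differed more from each other than most groups did, replicate 2 being far above replicate 1. H19 changed by -2.5 ± 0.72 (adjusted p = 0.037) at WT 72 h and by -3.56 ± 0.72 (adjusted p = 0.00099) at WT 144 h. The latter was the largest fall of any member on the log2(TPM + 1) scale. At the WT 144 h levels of Igf2, 0.497 and 0.430, that scale understates the ratio. The H19 difference at WT 144 h was called among the deposited TPM (-2.55) and stood at -2.17 without WT 0 h replicate 2. The 72 h call was lost without WT 0 h replicate 2, WT 72 h replicate 1 or WT 72 h replicate 2 (-3.09 to -1.1) and was not made among the deposited TPM (-2.05). At DKO 72 h the difference was -1.99 ± 0.72 (adjusted p = 0.12), which passed with the block at 0.00051 (0.00051 to 0.54 over all alternatives). It was -2.85 without DKO 0 h replicate 2 and -1.14 without DKO 0 h replicate 1. Within a library the ratio of H19 to Igf2 was 6.33 in WT 0 h replicate 1 and 27.8 in replicate 2.

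H19 and Igf2 are both expressed in extraembryonic endoderm, and the markers of that lineage differed between libraries too. The 7 primitive endoderm markers Gata4, Gata6, Sox17, Foxa2, Dab2, Pdgfra and Sox7 summed to 13.2 and 43.3 (0 h), 106 and 185 (24 h), 13.9 and 39.4 (72 h) and 13.9 and 13.1 (144 h) deposited TPM in WT. In DKO the sums were 41.5 and 13.8 (0 h), 71.5 and 31 (24 h) and 34.4 and 24 (72 h). In every group but WT 144 h the replicate with the higher marker sum was also the one with more H19. For Igf2, also in deposited TPM, that held in WT 0 h and WT 144 h and not in the other 5 groups. None of the 7 was listed at 0 in both libraries of any group. On the spike-in scale 4 of them were called higher at WT 24 h (1.25% of all genes) and 4 lower at WT 144 h (50.5%). All 7 were called higher at WT 24 h with the replicate block (30.2% of all genes called in either direction) and among the deposited TPM (29.9%). At DKO 24 h none of the 7 was called on either scale. Their part in the values of H19 and Igf2 was not tested.

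Igf2r, the receptor that carries IGF2 to the lysosome, and Airn, the long antisense RNA that starts inside it and silences it in cis, share no exonic base in the annotation. Igf2r was at 65.8 and 71.9 (0 h), 91.1 and 172 (24 h), 75.1 and 77.6 (72 h) and 60.8 and 50.6 (144 h) in WT. In DKO Igf2r was at 114 and 83.99 (0 h), 184 and 85.9 (24 h) and 129.7 and 88.03 (72 h). The 24 h libraries of WT held the highest Igf2r values of that genotype. Airn was low, at 1.03 and 1.15 (0 h), 1.18 and 2.12 (24 h), 0.496 and 1.38 (72 h) and 0.273 and 0.343 (144 h) in WT. In DKO Airn was at 2.22 and 1.03 (0 h), 0.808 and 0.737 (24 h) and 1.55 and 1.37 (72 h). Igf2r was not called on the spike-in scale, where the WT differences were 0.86, 0.15 and -0.31 at 24, 72 and 144 h, and was called higher at all 3 times among the deposited TPM (1.21, 0.56 and 0.7), so its sign at 144 h depends on the scale. With the replicate block the spike-in values gave Igf2r an adjusted p of 0.014 at WT 24 h by limma. In DKO it was called higher among the deposited TPM at 24 h (0.92) and not at 72 h (0.43). Airn was not called on either scale (-0.68 at WT 144 h, adjusted p = 0.041 with the replicate block).

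Grb10 fell at every time of mTORi in both genotypes. It encodes an adaptor that dampens insulin and IGF receptor signalling, and is maternally expressed outside the brain. RefSeq gives Grb10 2 promoter windows. The one shown is chr11:12037371-12037670 of GRCm38.p6 on the minus strand, with the hexamer in capitals and 45 CpG, beside a median of 7 in the 32851 promoter windows of RefSeq. The other, chr11:12027922-12028221, has 9 CpG and no TGCCGC.
Grb10 promoter: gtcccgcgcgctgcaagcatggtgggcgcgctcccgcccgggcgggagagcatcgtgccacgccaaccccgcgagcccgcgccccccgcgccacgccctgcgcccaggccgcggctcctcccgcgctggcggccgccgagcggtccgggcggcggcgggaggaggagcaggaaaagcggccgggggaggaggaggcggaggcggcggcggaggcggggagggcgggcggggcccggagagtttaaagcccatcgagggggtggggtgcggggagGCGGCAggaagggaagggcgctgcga

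Grb10 was at 103 and 86.9 (0 h), 28.98 and 26.9 (24 h), 36.3 and 17.4 (72 h) and 22.6 and 14.4 (144 h) in WT. In DKO Grb10 was at 34.3 and 31.9 (0 h), 10.3 and 5.9 (24 h) and 11.2 and 9.78 (72 h), in spike-in normalized TPM. Every treated library lay below both 0 h libraries of its genotype. It changed by -1.73 ± 0.35 (adjusted p = 0.0049), -1.87 ± 0.35 (adjusted p = 0.0044) and -2.33 ± 0.35 (adjusted p = 0.00014) in WT at 24, 72 and 144 h, and by -1.95 ± 0.35 (adjusted p = 0.0014) and -1.57 ± 0.35 (adjusted p = 0.018) in DKO at 24 and 72 h. Among the deposited TPM the differences were -1.34, -1.42, -1.31, -1.33 and -1.2, all called. The calls at WT 144 h and DKO 24 h held without any 1 library. The others were lost at WT 24 h without WT 0 h replicate 1 (-1.61), at WT 72 h without WT 72 h replicate 2 (-1.36) and at DKO 72 h without DKO 0 h replicate 1, DKO 0 h replicate 2, DKO 72 h replicate 1 or DKO 72 h replicate 2 (-1.66 to -1.49).

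Plagl1 encodes a zinc finger transcription factor that slows cell proliferation and is paternally expressed. The RefSeq window shown is chr10:13090582-13090881 of GRCm38.p6 on the plus strand, with the hexamer in capitals and 26 CpG.
Plagl1 promoter: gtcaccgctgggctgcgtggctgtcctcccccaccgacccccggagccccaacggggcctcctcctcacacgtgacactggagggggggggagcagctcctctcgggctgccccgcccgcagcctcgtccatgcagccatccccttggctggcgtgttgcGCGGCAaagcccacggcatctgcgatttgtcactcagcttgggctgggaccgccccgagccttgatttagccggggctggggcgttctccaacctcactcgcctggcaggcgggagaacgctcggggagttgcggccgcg

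Plagl1 was at 29.4 and 27.9 (0 h), 13.4 and 18.7 (24 h), 2.89 and 10.04 (72 h) and 1.98 and 3.8 (144 h) in WT. In DKO Plagl1 was at 25.2 and 28.2 (0 h), 12.9 and 10.4 (24 h) and 14.04 and 8.76 (72 h). The WT 72 and 144 h libraries were all below both 0 h libraries. It changed by -2.18 ± 0.42 (adjusted p = 0.0045) at WT 72 h and -2.97 ± 0.42 (adjusted p = 7.1e-05) at WT 144 h, and both calls were made among the deposited TPM (-1.66 and -1.98). The 72 h call was lost without WT 72 h replicate 1 (-1.42). At 24 h the WT difference was -0.82 and not called (adjusted p = 0.043 with the replicate block). In DKO it was -1.13 at 24 h (adjusted p = 0.0054 with the replicate block) and -1.19 ± 0.42 (adjusted p = 0.11) at 72 h. The latter passed with the block at 0.0097 (0.0097 to 0.45 over all alternatives).

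The Kcnq1 cluster on chromosome 7 holds maternally expressed brakes on growth next to the paternally expressed antisense RNA Kcnq1ot1. Phlda2, a pleckstrin homology domain protein that limits placental growth, had the largest fall of any member at 24 h. It was at 72.4 and 98.2 (0 h), 7.88 and 13.4 (24 h), 44.7 and 20.6 (72 h) and 53.1 and 34.8 (144 h) in WT. In DKO Phlda2 was at 182 and 113 (0 h), 22.4 and 11.5 (24 h) and 35.6 and 47.1 (72 h), in spike-in normalized TPM. In both genotypes the 24 h libraries were the lowest and the later ones lay between them and the 0 h libraries. Phlda2 changed by -2.92 ± 0.4 (adjusted p = 0.00023) at WT 24 h, -3.08 ± 0.4 (adjusted p = 0.0001) at DKO 24 h, -1.44 ± 0.4 (adjusted p = 0.03) at WT 72 h and -1.78 ± 0.4 (adjusted p = 0.017) at DKO 72 h. The WT 144 h difference of -0.95 ± 0.4 (adjusted p = 0.0504) just missed the threshold, passed with the block at 0.019 (0.019 to 0.92 over all alternatives) and was 0.06 among the deposited TPM. Both 24 h calls held without any 1 library, the WT 72 h call was lost without WT 0 h replicate 1, WT 0 h replicate 2 or WT 72 h replicate 2 (-1.66 to -0.9) and the DKO 72 h call without DKO 0 h replicate 1, DKO 72 h replicate 1 or DKO 72 h replicate 2 (-1.98 to -1.44). The WT 72 h call was not made among the deposited TPM (-1.01), unlike the 24 h calls and that at DKO 72 h.

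Cdkn1c, an inhibitor of cyclin-dependent kinases whose library values were chosen after they were seen, fell at 24 h on the spike-in scale too. It was at 78.1 and 144 (0 h), 26.7 and 29.4 (24 h), 108 and 37.7 (72 h) and 38.05 and 26.9 (144 h) in WT. In DKO Cdkn1c was at 150.3 and 58.9 (0 h), 20.1 and 19.6 (24 h) and 42.6 and 68.8 (72 h). In both genotypes the 24 h libraries were below the 0 h libraries, and the WT 0 h libraries differed from each other. It changed by -1.89 ± 0.45 (adjusted p = 0.011) at WT 24 h, -1.7 ± 0.45 (adjusted p = 0.0052) at WT 144 h and -2.19 ± 0.45 (adjusted p = 0.0029) at DKO 24 h. None of these passed among the deposited TPM (-1.5, -0.69 and -1.59). The calls were lost at WT 24 h without WT 0 h replicate 2 or WT 24 h replicate 1 (-1.82 to -1.45), at WT 144 h without WT 0 h replicate 2 or WT 144 h replicate 2 (-1.46 to -1.26) and at DKO 24 h without DKO 0 h replicate 1 (-1.52).

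In the same cluster Ascl2, a basic helix-loop-helix factor of trophoblast, changed by -1.6 ± 0.41 (adjusted p = 0.0044) at WT 144 h, and Cd81, a tetraspanin of the cell surface, by -1.08 ± 0.3 (adjusted p = 0.0073). Neither was called among the deposited TPM, where they were -0.7 and -0.06. The Ascl2 call was lost without WT 0 h replicate 2 (-1.11) and the Cd81 call without WT 0 h replicate 2 or WT 144 h replicate 2 (-1.02 to -0.88). Kcnq1ot1, with a mean of 6.95 deposited TPM, differed by -0.64, -0.04 and -0.83 in WT at 24, 72 and 144 h, and was not called (adjusted p = 0.023 with the replicate block at 144 h). Slc22a18, a transporter of the organic cation family with a mean of 1.09, was not called on the spike-in scale and was called higher at WT 72 h among the deposited TPM (0.58).

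Mcts2 fell on both scales, while its host H13 was called on the spike-in scale only. It is a paternally expressed retrogene copy of the translation factor gene Mcts1, inside an intron of H13, which encodes signal peptide peptidase and is described as maternally biased. Both lie on the same strand and share no exonic base in the annotation, though reads shared with the Mcts1 source gene or from unspliced H13 RNA could be counted as Mcts2. The Mcts2 promoter is shown because this internal promoter is the imprinted one at the locus. The window is chr2:152686898-152687197 of GRCm38.p6 on the plus strand, with the hexamer in capitals and 25 CpG.
Mcts2 promoter: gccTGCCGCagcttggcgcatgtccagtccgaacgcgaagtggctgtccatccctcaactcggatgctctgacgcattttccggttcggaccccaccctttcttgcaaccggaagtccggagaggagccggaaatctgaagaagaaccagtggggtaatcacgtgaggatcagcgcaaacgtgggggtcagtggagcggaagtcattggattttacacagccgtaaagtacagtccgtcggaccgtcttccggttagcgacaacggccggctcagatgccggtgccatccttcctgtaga

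Mcts2 was at 109 and 131 (0 h), 53.3 and 75.4 (24 h), 62.4 and 52.8 (72 h) and 28.4 and 28.8 (144 h) in WT. In DKO Mcts2 was at 156 and 146 (0 h), 68.6 and 52.2 (24 h) and 93.7 and 68.6 (72 h). Every treated Mcts2 value was below both 0 h values of its genotype. H13 was at 33.3 and 41.4 (0 h), 22.8 and 24.5 (24 h), 28.4 and 25.8 (72 h) and 19.9 and 17.5 (144 h) in WT. In DKO H13 was at 51.2 and 45.2 (0 h), 44.3 and 21.4 (24 h) and 57.4 and 39.6 (72 h). On the spike-in scale the same held for H13 in WT but not in DKO. Mcts2 changed by -0.91 ± 0.28 (adjusted p = 0.044), -1.05 ± 0.28 (adjusted p = 0.026) and -2.03 ± 0.28 (adjusted p = 6.0e-05) in WT at 24, 72 and 144 h and by -1.32 ± 0.28 (adjusted p = 0.0037) at DKO 24 h, and was -0.9 at DKO 72 h without a call (adjusted p = 0.0077 with the replicate block). It was the one member besides Grb10 called lower in all 5 comparisons among the deposited TPM (-0.53, -0.62, -1.01, -0.75 and -0.59). H13 changed by -0.96 ± 0.33 (adjusted p = 0.021) at WT 144 h, with 0.03 and the opposite sign among the deposited TPM, a call lost without WT 0 h replicate 2, WT 144 h replicate 1 or WT 144 h replicate 2 (-1.05 to -0.8). The Mcts2 call at WT 144 h held without any 1 library. At WT 72 h it was lost without WT 0 h replicate 1, WT 0 h replicate 2, WT 72 h replicate 1 or WT 72 h replicate 2 (-1.18 to -0.91), at DKO 24 h without DKO 0 h replicate 1 (-1.27), and at WT 24 h without 10 of the 14 libraries in turn (-1.15 to -0.66). The within-library ratio of Mcts2 to H13 went from 3.28 and 3.17 at WT 0 h to 1.43 and 1.65 at 144 h, and from 3.05 and 3.22 at DKO 0 h to 1.63 and 1.73 at 72 h.

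**Figure D4:**
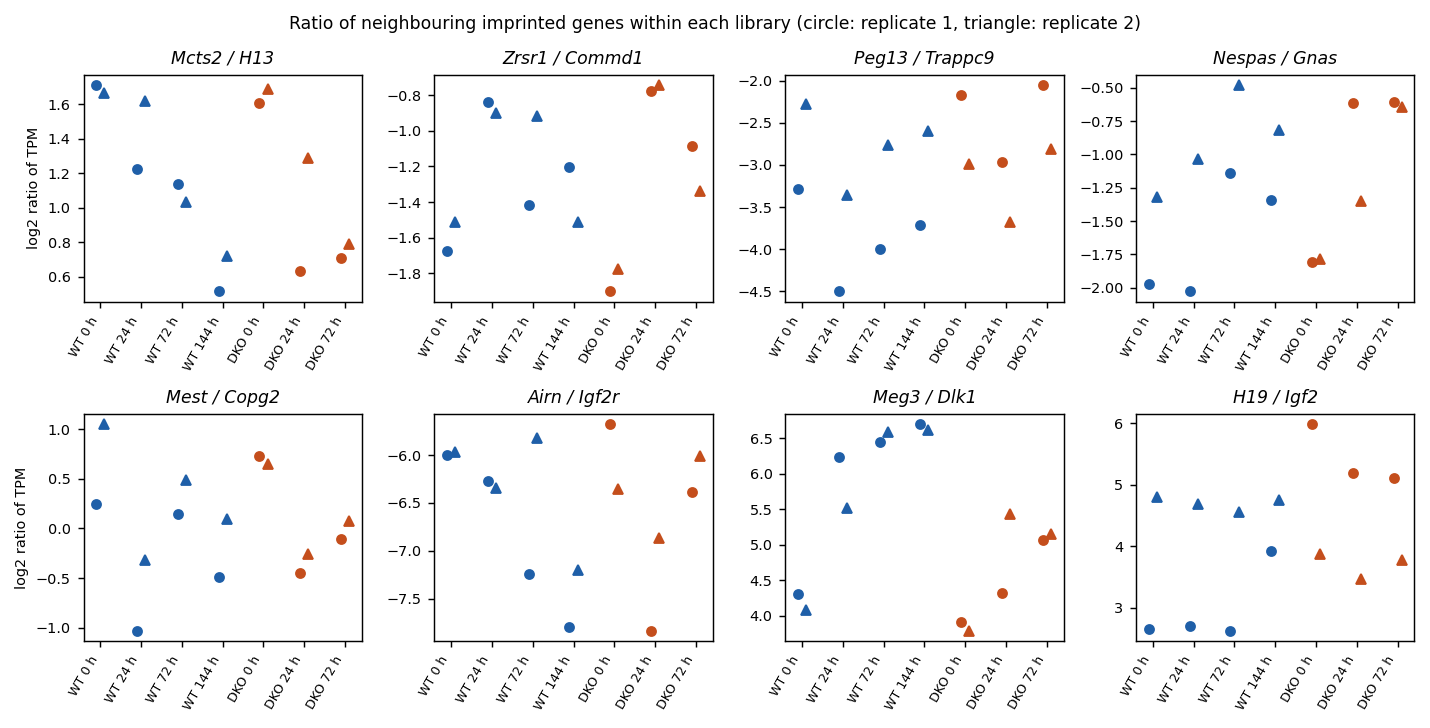
Log2 ratio of deposited TPM of 8 pairs of members at 1 locus in each library of the 7 groups, which does not depend on any scaling of the library (WT in blue, DKO in orange, circles for replicate 1, triangles for replicate 2). The ratio of Mcts2 to H13 is lower at 144 h than at 0 h in both WT replicates, and that of Meg3 to Dlk1 is higher.

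Zrsr1, a paternally expressed splicing factor retrogene, lies inside Commd1, a regulator of copper transport and NF-kappaB, on the other strand, and 412 of its exonic bases (9.17%) overlap those of Commd1. Commd1 was at 81.03 and 79.3 (0 h), 43.1 and 71.6 (24 h), 54.1 and 44.9 (72 h) and 31.6 and 36.5 (144 h) in WT. In DKO Commd1 was at 157 and 115 (0 h), 73.9 and 50.2 (24 h) and 114 and 73.4 (72 h). Every treated Commd1 value was below both 0 h values of its genotype on the spike-in scale. Zrsr1 was at 25.4 and 27.8 (0 h), 24.1 and 38.3 (24 h), 20.3 and 23.8 (72 h) and 13.8 and 12.8 (144 h) in WT. In DKO Zrsr1 was at 42.04 and 33.6 (0 h), 43.1 and 30.03 (24 h) and 53.9 and 29.1 (72 h). The WT 144 h libraries of Zrsr1 were the lowest of all on the spike-in scale. Commd1 changed by -1.21 ± 0.31 (adjusted p = 0.0046) at WT 144 h and -1.13 ± 0.31 (adjusted p = 0.017) at DKO 24 h, the latter also among the deposited TPM (-0.56), and Zrsr1 changed by -0.95 ± 0.33 (adjusted p = 0.024) at WT 144 h, with 0.02 and the opposite sign among the deposited TPM. The call of Commd1 at DKO 24 h was lost without DKO 0 h replicate 1 or DKO 24 h replicate 2 (-0.91 to -0.86) and that of Zrsr1 without WT 0 h replicate 1, WT 0 h replicate 2, WT 144 h replicate 1 or WT 144 h replicate 2 (-1.02 to -0.89). Zrsr1 was called higher among the deposited TPM at WT 24 h (0.53) and DKO 24 h (0.48). Within libraries the ratio of Zrsr1 to Commd1 was 0.314 and 0.351 (0 h), 0.560 and 0.536 (24 h), 0.375 and 0.530 (72 h) and 0.435 and 0.350 (144 h) in WT. In DKO it was 0.268 and 0.292 (0 h), 0.583 and 0.598 (24 h) and 0.472 and 0.396 (72 h), so that in both genotypes both 24 h ratios were above both 0 h ratios.

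Peg13, a paternally expressed noncoding RNA, lies in an intron of Trappc9, a subunit of a vesicle tethering complex that is maternally biased in brain. Trappc9 was at 13.6 and 16.5 (0 h), 22.7 and 28.5 (24 h), 22.5 and 23.04 (72 h) and 12.3 and 11.2 (144 h) in WT. In DKO Trappc9 was at 20.5 and 16.2 (0 h), 31.3 and 17.96 (24 h) and 31.9 and 23.4 (72 h). Both Trappc9 libraries at WT 24 h and at WT 72 h were above both at 0 h. Peg13 was at 1.39 and 3.42 (0 h), 1.0 and 2.79 (24 h), 1.4 and 3.4 (72 h) and 0.936 and 1.85 (144 h) in WT. In DKO Peg13 was at 4.57 and 2.04 (0 h), 4.0 and 1.4 (24 h) and 7.72 and 3.34 (72 h). Peg13 was higher in replicate 2 of every WT group and in replicate 1 of every DKO group. Trappc9 was called in no comparison on the spike-in scale, where it was 0.73 at WT 24 h and -0.33 at WT 144 h, and was called higher in all 5 among the deposited TPM (1.04 and 0.61 at these times). Trappc9 at WT 24 h had an adjusted p of 0.019 with the replicate block by limma. Its sign at 144 h thus depends on the scale. Peg13 was not called on either scale.

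The Gnas locus on chromosome 2 makes the stimulatory G protein alpha subunit and the paternally expressed antisense RNA Nespas, of whose exonic bases 988 (31.4%) overlap those of Gnas. Gnas, counted with the maternally expressed members, has several RefSeq promoter windows, and its value sums all its transcripts. Gnas was at 161 and 119.6 (0 h), 143 and 126 (24 h), 148 and 102 (72 h) and 83.9 and 80.7 (144 h) in WT. In DKO Gnas was at 223 and 178 (0 h), 172 and 103 (24 h) and 185 and 143 (72 h). The WT 144 h libraries held the lowest Gnas values on the spike-in scale. Nespas was at 40.99 and 47.9 (0 h), 34.9 and 61.8 (24 h), 67.2 and 73.4 (72 h) and 33.2 and 45.8 (144 h) in WT. In DKO Nespas was at 63.7 and 51.5 (0 h), 112 and 40.4 (24 h) and 122 and 91.7 (72 h). The highest Nespas value of all on the spike-in scale was in DKO 72 h replicate 1. Gnas changed by -0.75 ± 0.3 (adjusted p = 0.041) at WT 144 h, with 0.27 and the opposite sign among the deposited TPM, a call lost without WT 0 h replicate 1, WT 0 h replicate 2, WT 144 h replicate 1, WT 144 h replicate 2, DKO 0 h replicate 1 or DKO 0 h replicate 2 (-0.96 to -0.53). Nespas was not called on the spike-in scale and was called higher among the deposited TPM at WT 72 h (1.06), WT 144 h (0.82), DKO 24 h (0.78) and DKO 72 h (1.16), while on the spike-in scale it was -0.18 at WT 144 h.

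Mest, a paternally expressed gene for a protein of the hydrolase fold family, and Copg2, a maternally biased coatomer subunit, meet tail to tail on chromosome 6, and 912 exonic bases of Mest (23.1%) overlap those of Copg2. Mest was at 74.99 and 145 (0 h), 34.6 and 71.7 (24 h), 72.8 and 113 (72 h) and 29.8 and 47.9 (144 h) in WT. In DKO Mest was at 171 and 149.6 (0 h), 86.6 and 56.2 (24 h) and 127 and 87.1 (72 h). On the spike-in scale replicate 2 was the higher for Mest in every WT group and replicate 1 in every DKO group. Among the deposited TPM replicate 2 was the higher in every group of both genotypes. Copg2 was at 63.2 and 70.2 (0 h), 70.6 and 89.1 (24 h), 65.8 and 80.4 (72 h) and 41.9 and 44.7 (144 h) in WT. In DKO Copg2 was at 103 and 95.7 (0 h), 118 and 67.4 (24 h) and 137 and 82.7 (72 h). The WT 144 h libraries held the lowest Copg2 values on the spike-in scale. Mest changed by -1.44 ± 0.38 (adjusted p = 0.0054) at WT 144 h and -1.19 ± 0.38 (adjusted p = 0.035) at DKO 24 h, neither called among the deposited TPM (-0.43 and -0.62). The first call was lost without WT 0 h replicate 2 or WT 144 h replicate 1 (-1.11 to -0.97) and the second without DKO 0 h replicate 1, DKO 0 h replicate 2 or DKO 24 h replicate 2 (-1.28 to -0.88). Copg2 was not called on the spike-in scale, and among the deposited TPM it was called higher at WT 24 h (0.61) and 72 h (0.54).

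In the Peg3 cluster on chromosome 7, Zim1, a maternally expressed zinc finger gene of very low level, was at 2.91 and 4.37 (0 h), 0.600 and 0.461 (24 h), 1.12 and 0.765 (72 h) and 0.449 and 0.359 (144 h) in WT. In DKO Zim1 was at 2.7 and 1.16 (0 h), 1.12 and 0.421 (24 h) and 1.16 and 0.679 (72 h). In WT all treated libraries were below both 0 h libraries, and in DKO the 0 h values were lower than in WT. Zim1 changed by -1.58 ± 0.35 (adjusted p = 0.008), -1.25 ± 0.35 (adjusted p = 0.035) and -1.71 ± 0.35 (adjusted p = 0.0012) in WT at 24, 72 and 144 h, all called among the deposited TPM too (-1.02, -0.76 and -0.96), and at this level the difference on the log2(TPM + 1) scale understates the ratio. The calls at 24 h were lost without WT 0 h replicate 2 or WT 24 h replicate 1 (-1.65 to -1.36) and at 72 h without WT 0 h replicate 1, WT 0 h replicate 2, WT 72 h replicate 1, WT 72 h replicate 2, WT 144 h replicate 1 or WT 144 h replicate 2 (-1.47 to -1.02), and that at 144 h held. Usp29, a paternally expressed relative of ubiquitin-specific proteases, changed by -1.51 ± 0.39 (adjusted p = 0.021) at WT 72 h, a call lost without WT 0 h replicate 1, WT 0 h replicate 2, WT 72 h replicate 1 or WT 72 h replicate 2 (-1.57 to -1.45), and by -1.59 ± 0.39 (adjusted p = 0.0032) at WT 144 h. Both were called among the deposited TPM, at -0.99 and -0.77. Peg3, a paternally expressed gene for a large zinc finger protein, changed by -1.14 ± 0.37 (adjusted p = 0.017) at WT 144 h, a call lost without WT 0 h replicate 2, WT 144 h replicate 1 or WT 144 h replicate 2 (-1.2 to -0.49) and not made among the deposited TPM (-0.14).

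Peg10 and Sgce are driven from a shared paternally expressed promoter region on chromosome 6. Peg10, a retrotransposon-derived protein needed for the placenta, was second in level among the members. Its WT group means ± SD were 529 ± 117, 429 ± 64.4, 276 ± 54.4 and 164 ± 21.04 spike-in normalized TPM at 0, 24, 72 and 144 h, 2 libraries each. It changed by -1.68 ± 0.26 (adjusted p = 0.00018) at WT 144 h, also called among the deposited TPM at -0.65. At WT 72 h Peg10 changed by -0.93 ± 0.26 (adjusted p = 0.035), called on the spike-in scale only (-0.5 among the deposited TPM) and lost without WT 0 h replicate 1, WT 0 h replicate 2, WT 72 h replicate 1, WT 72 h replicate 2, WT 144 h replicate 1, WT 144 h replicate 2, DKO 0 h replicate 1 or DKO 0 h replicate 2 (-1.16 to -0.7). Sgce, a sarcoglycan of the cell membrane, changed by -1.44 ± 0.34 (adjusted p = 0.0029) at WT 144 h, where the deposited TPM gave -0.58, also called, and was called higher at 24 h among the deposited TPM in WT (1.0) and DKO (0.66). Ppp1r9a, the actin-binding protein neurabin, was not called on the spike-in scale and was called higher at WT 72 h (0.67) and DKO 72 h (0.67) among the deposited TPM.

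The Snrpn-Ube3a cluster is the mouse counterpart of the Prader-Willi and Angelman region. Snrpn, which encodes the splicing protein SmN, changed by -1.12 ± 0.29 (adjusted p = 0.005) at WT 144 h and -1.06 ± 0.29 (adjusted p = 0.017) at DKO 24 h, the latter also among the deposited TPM (-0.49), where Snrpn was called lower at DKO 72 h too (-0.63). Ube3a, a ubiquitin ligase that is maternally expressed in neurons only, changed by -1.16 ± 0.36 (adjusted p = 0.012) at WT 144 h, and Peg12, a relative of the Wnt pathway protein FRAT, by -1.13 ± 0.38 (adjusted p = 0.019). Neither was called among the deposited TPM. The Snrpn calls were lost at WT 144 h without WT 0 h replicate 2 or WT 144 h replicate 1 (-1.0 to -0.9) and at DKO 24 h without DKO 0 h replicate 1 or DKO 24 h replicate 2 (-0.92 to -0.74), the Ube3a call without WT 0 h replicate 2 or WT 144 h replicate 1 (-0.99) and the Peg12 call without WT 0 h replicate 1, WT 0 h replicate 2, WT 144 h replicate 1 or WT 144 h replicate 2 (-1.19 to -1.08). Ndn and Magel2, which encode MAGE family proteins, and Mkrn3, a ring finger protein that restrains puberty, were not called on the spike-in scale. Their mean levels were 2.64, 0.625 and 4.18 deposited TPM. Among the deposited TPM Mkrn3 was called higher at WT 24 h, WT 72 h, DKO 24 h and DKO 72 h (0.68 to 0.86 in DKO).

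The last members are single imprinted genes. Impact, a regulator of the amino acid sensing kinase GCN2, changed by -0.86 ± 0.33 (adjusted p = 0.035) at WT 144 h, with 0.16 and the opposite sign among the deposited TPM, and by -1.09 ± 0.33 (adjusted p = 0.025) at DKO 24 h. These calls were lost without WT 0 h replicate 2, WT 144 h replicate 1 or WT 144 h replicate 2 (-0.88 to -0.52) and without DKO 0 h replicate 1, DKO 0 h replicate 2 or DKO 24 h replicate 2 (-1.22 to -0.61). Nnat, a small membrane protein of brain, changed by -1.39 ± 0.37 (adjusted p = 0.014) at DKO 24 h (-0.8 and called among the deposited TPM), a call lost without DKO 0 h replicate 1 or DKO 24 h replicate 2 (-1.12 to -1.07), and was -1.12 at WT 24 h without a call (adjusted p = 0.0026 with the replicate block). Inpp5f, an inositol phosphatase with a paternally expressed isoform, was not called on the spike-in scale and was called higher at WT 144 h among the deposited TPM (0.53).

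DKO and WT cells were then compared at the same time of mTORi. No member was called at 0, 24 or 72 h by limma on the spike-in scale, where 0.0439%, 0.0439% and 0.329% of all genes were called, and 2, 2 and 8 members had an unadjusted p under 0.05, as did 8.35%, 4.14% and 23% of all genes. The median of the members was 0.32, 0.01 and 0.41, beside 0.29, 0.10 and 0.49 for all genes. With all libraries in the fit, the largest difference of each time was that of Grb10, whose DKO values given above were all below the WT values of the same time. It was -1.49 ± 0.35 (adjusted p = 0.21), -1.71 ± 0.35 (adjusted p = 0.1) and -1.2 ± 0.35 (adjusted p = 0.13) at 0, 24 and 72 h. Without WT 72 h replicate 1 the 72 h difference was -0.69, and Grb10 then ranked 9 among the members by size. Grb10 was also the only member called among the deposited TPM, lower in DKO by 1.73, 1.72 and 1.51 on the log2 scale, with 0.598%, 1.37% and 4.01% of all genes called. On the spike-in scale the call was made without DKO 24 h replicate 1 or DKO 24 h replicate 2 (-1.49) at 0 h, without DKO 24 h replicate 1 (-2.07) at 24 h and without DKO 24 h replicate 1 or DKO 24 h replicate 2 (-1.2) at 72 h. Peg3 differed by -0.54 ± 0.37, -0.63 ± 0.37 and -0.24 ± 0.37 and was not called on either scale, and at 0 h its sign turned to 0.11 without WT 0 h replicate 2. Leaving out 1 library moved Peg3 from -0.99 (DKO 24 h replicate 1) to -0.27 (DKO 24 h replicate 2) at 24 h, and from -0.45 (DKO 72 h replicate 1) to -0.0412 (DKO 72 h replicate 2) at 72 h.

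The response to mTORi was tested for a difference between the genotypes as an interaction. No member was called at 24 h, where 1 of 18232 genes (0.00548%) was, or at 72 h, where no gene was (0%). None of the members had an unadjusted p under 0.05 at 24 h and 1 had at 72 h, beside 1.22% and 0.993% of all genes. That member was Slc22a18, with a difference of responses of -1.31 ± 0.49 (adjusted p = 1.0). For Meg3 the difference of responses at 72 h was -0.15 ± 0.41, for Grb10 0.29 ± 0.5, for H19 0.5 ± 1.02 and for Plagl1 0.99 ± 0.59. With 2 libraries per group these standard errors leave room for differences of the size of the responses of several members themselves.

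**Figure D5:**
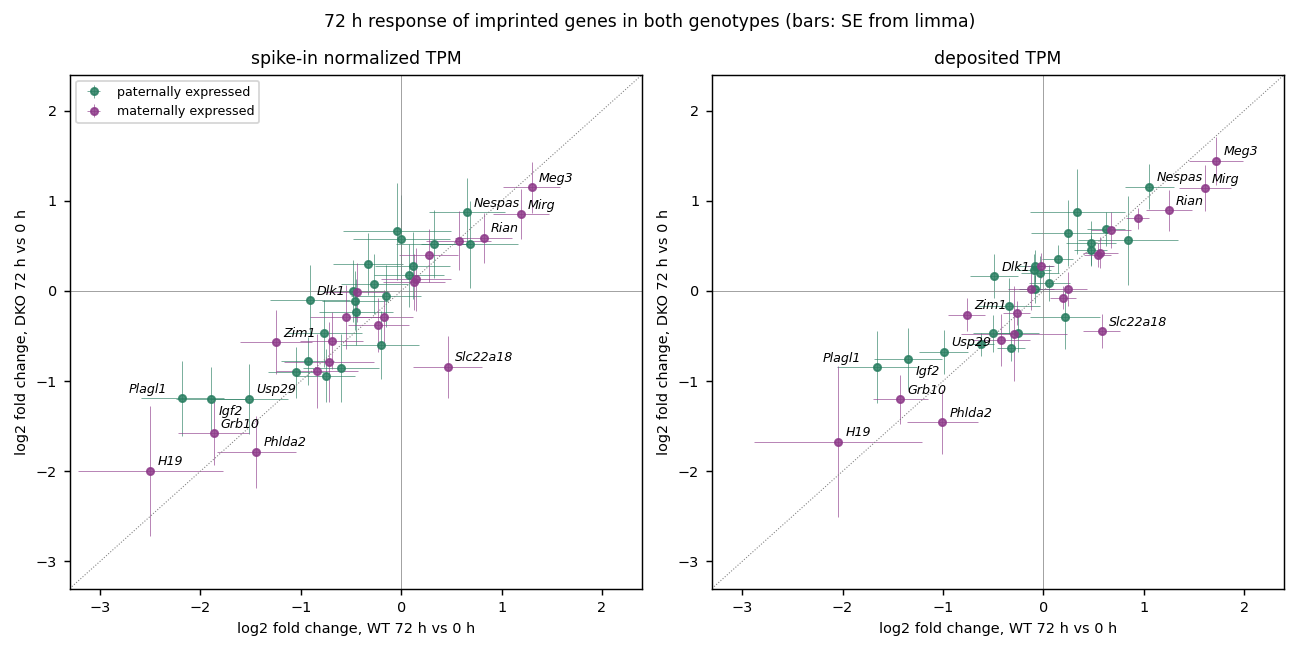
Log2 difference of 72 h against 0 h of each tested member in DKO (vertical axis) and in WT (horizontal axis), with SE bars, on the spike-in scale and among the deposited TPM. Meg3 lies above 1 and Grb10 below -1 in both genotypes on both scales, and no member's difference of responses between the genotypes was called.

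The promoter windows of the members were compared with all those in RefSeq as a description. A window was found for 33 of the 43 members (48 windows). The letters TGCCGC, searched on both strands, were in 12 of the 48 windows (25%) and in 3813 of 32851 windows (11.61%) over all genes. Windows of the same gene can overlap and were each counted, as those of Mest starting at 30737800 and 30737803. The median window of the members held 15 CpG, and that of all genes 7. A match is a run of letters and not a bound site.

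A list of 20 genes that set, keep or erase methylation at imprints was fitted in the same way. At WT 144 h 13 of them fell and none rose, beside 50.5% and 0.461% of all genes, and their median was -0.94 beside -0.83. At WT 24 h 3 fell, beside 8.73% of all genes, and at DKO 24 h 5 fell, beside 18.7%. None was called by limma at WT 72 h, where 7.6% of all genes fell, or at DKO 72 h, where 2.95% did (3 and 5 of the 20 had an unadjusted p under 0.05, beside 25.7% and 19.7% of all genes). The fit with the replicate block gave 6 that fell at WT 24 h (30.2% of all genes called in either direction), 3 at WT 72 h (28.3%), 17 at WT 144 h (67.4%), 9 at DKO 24 h (40%) and 4 at DKO 72 h (18.5%). The deposited TPM gave 3 higher and 4 lower at WT 24 h (29.9%), 3 higher at WT 72 h (24%), 6 higher and 1 lower at WT 144 h (27.3%), 3 higher and 4 lower at DKO 24 h (24.9%), and 6 higher and 1 lower at DKO 72 h (26.3%). The 3 at WT 24 h were Uhrf1, which brings DNMT1 to replicated DNA, with -1.12 ± 0.26, and the de novo methyltransferases Dnmt3a with -1.46 ± 0.35 and Dnmt3b with -0.98 ± 0.29, all 3 also called among the deposited TPM. The calls of Uhrf1 and Dnmt3a there were lost in 3 of the 14 fits that left out 1 library (WT 0 h replicate 1 or 2 or WT 24 h replicate 1) and that of Dnmt3b in 6 (any WT library of 0, 24 or 144 h). Dppa3, a protein that protects the maternal genome from demethylation, was at 15.5 and 60.6 (0 h), 6.96 and 44.1 (24 h), 3.49 and 5.4 (72 h) and 2.14 and 0.507 (144 h) in WT, in spike-in normalized TPM, and the 0 h libraries lay far apart. It changed by -3.87 ± 0.83 (adjusted p = 0.0014) at WT 144 h, and by -2.89, also called, among the deposited TPM. The spike-in call held without any 1 library, with -4.82 without WT 0 h replicate 1 and -2.92 without WT 0 h replicate 2. Zfp57 differed by -0.74 ± 0.26 at that time on the spike-in scale and by 0.28 among the deposited TPM, and Trim28 by -1.25 ± 0.29 and -0.22.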

How the data were processed

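Total RNA was measured in 14 libraries. Reads were trimmed with cutadapt 2.4, aligned with STAR 2.7.3a to mm10 and quantified with StringTie 2.0 (submitters' processing notes), on the GENCODE VM19 annotation. The values deposited by the authors are TPM that sum to 1000000 per library, so the read depth behind them is unknown from these values and no counting error is given. They hold no ERCC rows and were not spike-in normalized. The factor of each library is the median ratio of the study's supplementary spike-in normalized TPM (its first 1999 rows only) to the deposited TPM over genes of at least 1 TPM. It is 1 to 2.81, and the library means of the scaled TPM over all genes were 18.4 to 51.7.

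Values were analysed as log2(TPM + 1), with a pseudocount of 1, for 18232 genes with a mean of at least 1. All 7 groups were fitted together with limma 3.58.1 in R 4.3.3 (empirical Bayes with trend, two-sided), with Benjamini-Hochberg adjustment over all genes of a comparison and a threshold of 0.05. The authors ran DESeq2 on StringTie values, a step not repeated here. The replicate differences of groups correlated over 0.1 in 3 of 3 pairs of groups within DKO (0.222 to 0.341) and 5 of 6 within WT (0.0622 to 0.398), and in 1 of 12 between genotypes (-0.501 to 0.116). The study's reporting form states that the times of a replicate were processed in parallel, so the replicate numbers can be taken to pair libraries within a genotype. Calls given without the block leave that pairing out, and those given with the block use it.

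Every member is named. Values of all libraries are given for called members with one of the 6 largest differences at WT 144 h, DKO 72 h or between genotypes and for nested or antisense pairs of which both genes passed the filter. The 43 members, the list of 20 methylation factors, 24 other imprinted genes and marker lists were chosen with earlier results of these data known. Nested genes were compared by exons in GENCODE VM19, and promoters and miRNAs came from RefSeq tables. Plain TPM, a pseudocount of 0.1, no filter, replicate blocks and leaving out each library were tried as alternatives. One further alternative, plain TPM with the block, was chosen after seeing the data.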

Additional observations from a re-analysis of the deposited data

How the results depend on the processing

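The counts of called members depended on the scaling, the filter and the replicate block, and the cause was not tested. Among the deposited TPM 11 members were called at WT 24 h, 11 at DKO 72 h and 1 (Grb10) between the genotypes at each of 0, 24 and 72 h. With no filter on low genes, which adds genes to the adjustment, 3 were called at WT 24 h (2.73% of all genes), 3 at WT 72 h (1.87%), 14 at WT 144 h (18.6%), 4 at DKO 24 h (6.16%) and 0 at DKO 72 h (1.58%). With the replicate block within each genotype the counts were 18 at WT 24 h, 17 at WT 72 h, 29 at WT 144 h, 23 at DKO 24 h and 15 at DKO 72 h. With the block among the deposited TPM they were 17 (37.1%), 20 (32%), 19 (35.5%), 18 (31.9%) and 18 (35.8%). This block leaves no direct test between the genotypes at 1 time. For the difference of responses it called no member, and 2 at 24 h and 3 at 72 h had an unadjusted p under 0.05, beside 4.18% and 3.75% of all genes. It changed the call of the member differences given above with its adjusted p, and of no other spike-in difference printed for WT or DKO against 0 h. A pseudocount of 0.1 and a block over all libraries each left 74 of 75 member differences on their side of the threshold and in their direction.

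Leaving out 1 library at a time gave 2 to 12 calls at WT 24 h (1.96% to 19.8% of all genes), 1 to 13 at WT 72 h (0.367% to 18.8%), 11 to 26 at WT 144 h (21.6% to 60.4%), 2 to 21 at DKO 24 h (4.43% to 48%) and 0 to 10 at DKO 72 h (0.505% to 10.5%). Between the genotypes it gave 0 to 1, 0 to 1 and 0 to 2 at 0, 24 and 72 h (0% to 0.269%, 0.0384% to 0.159% and 0% to 6.9%). The lowest counts came at WT 24 h without WT 0 h replicate 2 or WT 24 h replicate 1, at WT 72 h without WT 72 h replicate 2, at WT 144 h without WT 0 h replicate 2, at DKO 24 h without DKO 0 h replicate 1 and at DKO 72 h without either 72 h library. Leaving out either DKO 24 h library gave the highest counts at WT 24 h, WT 72 h, WT 144 h and DKO 72 h. At DKO 24 h the highest count came without DKO 24 h replicate 1.

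The all-gene median at WT 144 h was -0.83 on the spike-in scale and 0.05 among the deposited TPM. The share of all genes with opposite signs on the 2 scales was not counted. At WT 144 h 18 of the 42 members had the opposite sign among the deposited TPM. Of the differences at that time given in the report for both scales, these were H13 at 0.0328, Impact at 0.16, Gnas at 0.27, Zrsr1 at 0.0227, Phlda2 at 0.0568, Igf2r at 0.70, Nespas at 0.82 and Trappc9 at 0.61. The others were Copg2, Inpp5f, Kcnq1ot1, Magel2, Mkrn3, Ndn, Nnat, Peg13, Ppp1r9a and Slc22a18. Leaving out 1 library moved Peg3 between the genotypes at 0 h from -1.19 to 0.11, the latter without WT 0 h replicate 2, and Nespas at WT 144 h from -0.41 to 0.0465, the latter without WT 144 h replicate 1. With 2 libraries per group, small differences of members near the filter could be missed, and the power to detect them was not tested.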

Other observations

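A second list of 24 imprinted genes, of which 17 passed the filter, was fitted in the same way. On the spike-in scale 1 fell at 24 h, 3 fell at 72 h and 9 fell at 144 h in WT, beside 8.73%, 7.6% and 50.5% of all genes. In DKO 5 fell at 24 h and 1 at 72 h, beside 18.7% and 2.95%, and none was called higher at any of these times. With the replicate block 5, 5 and 11 fell at these times in WT, and 10 and 5 in DKO, and 1 rose at WT 24 h, where 30.2%, 28.3%, 67.4%, 40% and 18.5% of all genes were called in either direction. The deposited TPM gave 3 higher and 4 lower at WT 24 h (29.9% of all genes), 2 and 5 at WT 72 h (24%), 4 and 5 at WT 144 h (27.3%), 3 and 5 at DKO 24 h (24.9%), and 2 and 4 at DKO 72 h (26.3%). Sfmbt2, a paternally expressed Polycomb group gene that hosts a large miRNA cluster in rodents, changed most at 72 and 144 h. It was at 63.9 and 179 (0 h), 43.8 and 88.1 (24 h), 11.9 and 14.1 (72 h) and 5.32 and 3.91 (144 h) in WT. In DKO Sfmbt2 was at 163 and 70.97 (0 h), 72.8 and 22.04 (24 h) and 16.2 and 13.7 (72 h), in spike-in normalized TPM. In WT both libraries at 72 h and both at 144 h were below both at 0 h, and in DKO both at 72 h were. The log2 differences were -2.95 ± 0.51 (adjusted p = 0.0022) at WT 72 h, -4.28 ± 0.51 (adjusted p = 1.7e-05) at WT 144 h and -2.77 ± 0.51 (adjusted p = 0.0043) at DKO 72 h by limma, all called among the deposited TPM as well, at -2.48, -3.26 and -2.39. Dhcr7, the last enzyme of cholesterol synthesis, changed by -2.09 ± 0.33 (adjusted p = 0.00097) at WT 24 h, -1.78 ± 0.33 (adjusted p = 0.004) at 72 h and -1.53 ± 0.33 (adjusted p = 0.0017) at 144 h. The deposited TPM gave -1.68, -1.34 and -0.52, all called. The call of Sfmbt2 at DKO 72 h was lost without DKO 72 h replicate 2, and its differences at WT 72 and 144 h were -2.22 and -3.54 without WT 0 h replicate 2. The Dhcr7 call at WT 72 h was lost without WT 0 h replicate 2 or WT 72 h replicate 2.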
